A study of Mus musculus with 21 samples.

Results

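The AP-1 transcription factors were examined as the 10 genes *Jun*, *Junb*, *Jund*, *Fos*, *Fosb*, *Fosl1*, *Fosl2*, *Atf2*, *Atf3* and *Batf*, chosen by name as substrates of the JNK kinases and their partners, out of 27373 gene names on the array. All 10 were present, with 17 probes between them. The study's question was whether mice without JNK1, the kinase encoded by *Mapk8*, stay metabolically protected on a fattening diet, and what this costs the skin in oxidative damage. The 21 Agilent 1-colour arrays hold RNA from JNK1 knockout (KO) and wild-type (WT) male mice, both on a C57Bl6/J background, fed a high-fat diet from week 5 to week 44 and 45 weeks old. There were 4 KO and 3 WT skin arrays, 3 KO and 3 WT liver arrays, and 4 KO and 4 WT arrays of epididymal fat. No mice on another diet were analysed here, so KO and WT arrays alike describe the high-fat state. The labels give neither how the knockout was made, nor whether its WT mice were littermates, nor which arrays share a mouse, so each p-value measures only the spread between these samples.

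AP-1 is a dimer of basic leucine zipper proteins. Jun proteins can pair with each other or with Fos proteins, and the ATF and BATF proteins pair with Jun, and which pair forms sets which DNA site is bound and whether a gene is turned up or down. JNK kinases take their name from the phosphorylation of c-Jun, and they also phosphorylate JunD and ATF2, which changes protein activity, a step that arrays of RNA do not measure. Several AP-1 genes are themselves induced within minutes of stress or growth factor signals, and in skin the factors act in keratinocyte growth and differentiation.

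The promoters of *Atf3*, *Jun* and *Fos* are shown because these genes carried the tissue pattern or the KO estimates described later and because each holds a close match to the cAMP response element (CRE), the site that ATF and Jun dimers bind. RefSeq (build GRCm38.p6) gave a promoter window of 300 bases, 250 before the gene start and 50 after it, for 9 of the 10 genes. The sequences printed are the 250 bases before the start, read 5′ to 3′ on the strand of the gene. Capitals mark matches to TGACGTCA with at most 1 letter different and matches to its shorter site TGACGT, on both strands, and the 2 searches overlap in *Atf3*. *Atf3* lies at chr1:191183334-191183583 on the minus strand, *Jun* at chr4:95052223-95052472 on the minus strand and *Fos* at chr12:85473640-85473889 on the plus strand.
Atf3: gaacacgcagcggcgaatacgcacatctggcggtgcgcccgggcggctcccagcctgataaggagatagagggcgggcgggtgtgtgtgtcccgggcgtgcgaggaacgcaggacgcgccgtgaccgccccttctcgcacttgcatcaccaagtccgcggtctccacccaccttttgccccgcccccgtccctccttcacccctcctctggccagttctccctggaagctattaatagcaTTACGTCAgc
Jun: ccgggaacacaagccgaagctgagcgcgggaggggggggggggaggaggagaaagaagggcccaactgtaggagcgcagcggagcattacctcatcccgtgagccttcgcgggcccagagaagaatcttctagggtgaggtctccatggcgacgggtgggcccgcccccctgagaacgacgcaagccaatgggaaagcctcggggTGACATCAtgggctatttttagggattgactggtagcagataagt
Fos: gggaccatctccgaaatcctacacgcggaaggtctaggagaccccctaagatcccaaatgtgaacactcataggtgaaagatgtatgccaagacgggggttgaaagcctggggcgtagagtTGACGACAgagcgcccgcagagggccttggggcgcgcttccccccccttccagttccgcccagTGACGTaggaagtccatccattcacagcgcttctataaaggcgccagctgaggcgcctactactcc

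The match in *Atf3*, TTACGTCA, ran from -10 to -3 counted from the start, the match in *Jun*, TGACATCA, from -45 to -38, and *Fos* held TGACGACA from -129 to -122 and the shorter site from -66 to -61. A match with at most 1 letter different was found in 3 of 9 promoters of the AP-1 genes, *Atf3*, *Fos* and *Jun*, and in 12.5% of all 32851 promoters of the table. The shorter site was found in *Atf3*, *Batf* and *Fos* and in 7.51% of all promoters. The exact CRE was in none of the 9 windows and in 1.79% of all promoters, and the AP-1 site TGANTCA was in none of the 9 and in 7.81% of all. These are letters in a window, and binding was not measured.

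Values from scanner files are log2 intensities minus the 75th percentile of each array, so 0 is that percentile, and levels of different genes are not comparable because each comes from its own probe. Between 38.9% (skin KO 1) and 57.2% (fat KO 2) of 41174 probes were well above background on the 20 scanner files used. The scanner file of fat WT 2 was not used: across probes it correlated with its column in the deposited value table at r = 0.779, where the other 20 arrays reached 0.969 or more, and its r with skin arrays (0.863 to 0.914) was above that with fat arrays (0.725 to 0.766). In the value table fat WT 2 had r of 0.953 to 0.980 with other fat arrays, so fat KO against WT was compared there, 4 against 4, and tissues were compared on the other 20 scanner files. *Mapk8* was lower in KO fat, at 5.70 ± 0.25 against 7.84 ± 0.14 in WT fat (value table, SD, n = 4 each), by -2.15 (SE 0.151, limma adjusted p = 0.00529). In liver *Mapk8* differed by -2.37 (adjusted p = 0.216) without overlap of the 3 KO and 3 WT arrays, and in skin it was well above background on 0 of 4 KO and 2 of 3 WT arrays. Markers of the labelled tissue were high in it: *Krt5* averaged 9.28 in skin, *Alb* 9.75 in liver and *Adipoq* 7.92 in fat.

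*Jun*, *Junb*, *Jund*, *Fos*, *Atf2*, *Atf3* and *Batf* were well above background on all 20 scanner arrays. *Fosl2* passed on 7 of 7 skin, 1 of 6 liver and 7 of 7 fat arrays, *Fosb* on 6 of 7, 2 of 6 and 5 of 7, and *Fosl1* on 0 of 7, 0 of 6 and 4 of 7. Tests in a tissue required a probe to pass on at least 3 of its arrays, so *Fosl1* was not tested in skin or liver, nor *Fosb* and *Fosl2* in liver alone.

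Most AP-1 genes differed between WT skin, liver and fat, as did most genes on the array. *Atf3* was far higher in fat than in skin or liver. *Fos* was high in fat, intermediate in skin and low in liver. *Junb* and *Jund* were highest in skin, *Fosl2* was at background in most liver arrays, and *Atf2* was lowest in skin. Against WT fat, 6 of 10 genes were called in WT skin at adjusted p below 0.05 (limma, Benjamini-Hochberg over 16089 genes), where 57.5% of all genes were called. Of the 6, 2 were higher (26.6% of all genes were called higher) and 4 lower (30.9% of all genes). In WT liver against WT fat 5 of 10 were called, none higher and 5 lower, against 61.5% of 15967 genes, 30.1% higher and 31.4% lower. In WT skin against WT liver 6 of 9 were called, 5 higher and 1 lower, against 64.3% of 14822 genes, 29.7% higher and 34.7% lower. Genes entered a contrast of tissues when they passed the filter in either tissue. *Fosl1* and *Fosl2* passed in fat and not in liver, and *Fosl2* passed in skin and not in liver. The filter thus favoured the direction of their calls, lower in liver. The totals called are near those of all genes, and the split by direction was not tested. The median difference over all genes was -0.157 for skin against fat, -0.045 for liver against fat and -0.140 for skin against liver, and the medians of the AP-1 genes were 0.04, -0.68 and 0.90.

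*Junb*, a Jun protein that restrains keratinocyte and myeloid growth, stood at 6.34, 5.46, 5.798 and 5.34 in KO skin and at 5.75, 5.23 and 5.60 in WT skin. In liver it was 3.27, 3.44 and 3.81 in KO and 4.06, 4.11 and 3.71 in WT, and in fat 3.35, 3.94, 3.96 and 3.40 in KO and 3.57, 4.001 and 4.04 in WT. Every skin array lay above every liver and fat array, while liver and fat overlapped. In WT mice skin exceeded fat by 1.65 (SE 0.264, adjusted p = 5.57e-05) and liver by 1.57 (SE 0.262, adjusted p = 5.10e-05), and liver and fat differed by 0.09 (95% interval -0.47 to 0.64). A second *Junb* probe gave 1.54 and 1.196 for the same contrasts of skin.

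*Jund*, the Jun gene that is expressed most steadily without stimulation, was 5.43, 5.52, 5.40 and 5.49 in KO skin and 6.75, 5.35 and 5.56 in WT skin. Liver held 4.91, 5.26 and 4.91 in KO and 5.15, 5.16 and 4.51 in WT, and fat 4.59, 4.32, 4.51 and 4.46 in KO and 4.42, 4.81 and 4.70 in WT. All skin arrays were above all others, and skin WT 1, at 6.75, lay above the other 6 skin arrays. WT skin exceeded WT fat by 1.25 (SE 0.277, adjusted p = 0.00113) and WT liver by 0.94 (SE 0.276, adjusted p = 0.00640). Without skin WT 1 these differences were 0.81 (adjusted p = 0.00305) and 0.51 (adjusted p = 0.0328), and without the arrays treated as standing apart (skin KO 1 and WT 1, liver KO 1, KO 2 and WT 3) the difference from liver was 0.30 (adjusted p = 0.131). Liver exceeded fat by 0.30 (95% interval -0.28 to 0.89), a sign that turned under quantile normalization (-0.52, adjusted p = 0.0356) and in the value table (-0.30, adjusted p = 0.230).

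*Jun*, which encodes c-Jun, the JNK substrate itself, was the Jun gene called between liver and fat. It was 0.44, 0.51, 0.75 and 0.72 in KO skin and 1.22, 0.63 and 0.90 in WT skin, 0.45, 0.35 and -0.52 in KO liver and 0.59, 0.28 and 0.10 in WT liver, and 0.73, 0.60, 0.50 and 0.53 in KO fat and 0.68, 0.86 and 1.07 in WT fat. Ranges of all tissues overlapped. WT liver was below WT fat by -0.55 (SE 0.231, adjusted p = 0.0482) and WT skin above WT liver by 0.60 (SE 0.229, adjusted p = 0.0308), while WT skin and fat differed by 0.05 (95% interval -0.44 to 0.53). The first call was lost under 8 of 15 alternatives and the second under 6 of 15, among them leaving out liver WT 3 (-0.44, adjusted p = 0.158, and 0.48, adjusted p = 0.115).

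*Fos*, the immediate-early partner of Jun, stood at -0.52, -0.21, -0.02 and -0.47 in KO skin and -0.16, -0.36 and 0.53 in WT skin, at -2.77, -2.62 and -2.89 in KO liver and -2.14, -3.05 and -2.19 in WT liver, and at 0.86, 1.31, 1.38 and 1.12 in KO fat and 1.24, 1.30 and 1.30 in WT fat. The 3 tissues did not overlap on any array. WT skin was below WT fat by -1.28 (SE 0.253, adjusted p = 0.000425), WT liver below WT fat by -3.74 (SE 0.253, adjusted p = 1.11e-09), a 13.4-fold difference, and WT skin above WT liver by 2.46 (SE 0.252, adjusted p = 1.70e-07).

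*Fosl2*, which encodes the Fos-related protein Fra-2, was -0.61, -1.24, -0.49 and -0.95 in KO skin and -1.77, -1.08 and -1.23 in WT skin, and -1.87, -1.55, -2.64 and -2.19 in KO fat and -1.69, -2.08 and -2.00 in WT fat. In liver only WT 3 was well above background, at -2.87, against -5.08 and -5.22 on the other WT arrays and -4.76, -4.95 and -5.19 on KO arrays. Liver WT 3 also had summed keratinocyte markers of 5.29, against 3.48 and 3.40 on the other WT liver arrays. Among KO liver arrays KO 2 had a higher keratinocyte sum, 5.70, with *Fosl2* not above background, and the part of other tissue in these values was not tested. WT liver was below WT fat (-2.47, SE 0.453, adjusted p = 0.000148) and WT skin above WT liver (3.03, SE 0.452, adjusted p = 1.52e-05). Because *Fosl2* was well above background on 1 of 3 WT liver arrays, the sizes of these differences depend on the background level. In KO mice, where no liver array was well above background, *Fosl2* averaged -0.82 in skin, -2.06 in fat and -4.96 in liver. In the value table these means were 7.66, 6.49 and 5.20. The sizes of the differences in KO mice depend on the background level as well. WT skin and WT fat differed by 0.56 (adjusted p = 0.299), a difference that was called under 5 of 15 alternatives. The difference between liver and fat was -0.97 in the value table (adjusted p = 0.00334) and -0.34 after normexp background correction (adjusted p = 0.102). A second *Fosl2* probe, well above background on 3 of 20 arrays, gave 0.77 for liver against fat, the opposite sign, and 2.01 for skin against liver.

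*Fosb* and *Fosl1*, the other Fos genes, were dim. *Fosb* ranged from -4.25 to -2.15 in skin, from -3.63 to -3.04 in liver and from -4.01 to -2.04 in fat, and none of its 3 tissue contrasts was called (0.98 for WT skin against WT fat, adjusted p = 0.0610). The value for skin against fat passed in the value table (0.77, adjusted p = 0.0197) and after normexp (0.93, adjusted p = 0.00338), and the same contrast in KO arrays was -0.01 (adjusted p = 0.980). *Fosl1*, which encodes Fra-1, was called lower in WT liver than in WT fat (adjusted p = 0.00452), but it was well above background on 0 of 3 WT liver and 2 of 3 WT fat arrays, no fold above the background level could be given, and the sign turned under normexp.

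*Atf3*, a stress-induced ATF gene whose protein often represses its targets, gave the clearest fat pattern. It stood at 2.81, 3.52, 3.70 and 3.43 in KO fat and 3.56, 4.47 and 4.23 in WT fat. Skin held -0.26, 0.64, 0.39 and 0.61 in KO and 0.54, 1.27 and 1.22 in WT, and liver 0.44, 0.56 and -0.71 in KO and 0.79, 0.14 and -0.04 in WT. The lowest fat array was above the highest skin or liver array. WT skin was below WT fat by -3.08 (SE 0.367, 8.43-fold, adjusted p = 2.65e-06) and WT liver by -3.79 (SE 0.366, 13.8-fold, adjusted p = 9.75e-08), while skin and liver differed by 0.71 (95% interval -0.06 to 1.48, adjusted p = 0.0982). The same contrasts in KO mice were -3.02 and -3.27. Macrophage markers were also higher in fat: 6 of 6 were lower in WT skin than in WT fat, 5 of them called, and the sum of *Csf1r*, *Itgam* and *Cd14* was 3.08 to 3.61 in KO and 3.19 to 3.79 in WT skin, 3.30 to 4.23 in KO and 3.49 to 3.92 in WT liver, and 4.59 to 4.80 in KO and 4.76 to 5.04 in WT fat. Endothelial markers were also lower than in WT fat, 5 of 5 in WT skin (4 called) and 5 of 5 in WT liver (3 called). Adipocyte markers were lower for 6 of 6 in both, 1 called in skin and 6 in liver. Of 7 lymphocyte markers 4 were called lower and 1 higher in skin, and 3 lower and 1 higher in liver. Of all genes 30.9% and 31.4% were called lower. The part of these cell types in the *Atf3* level was not tested. In bulk tissue a change in the number of cells of a type and a change in RNA per cell cannot be told apart.

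*Atf2*, a JNK substrate that needs phosphorylation to become active, was -0.53, -0.51, -0.52 and -0.64 in KO skin and -1.18, -0.46 and -0.52 in WT skin, all below the arrays of the other tissues (-0.05 to 0.44 in liver, 0.17 to 0.70 in fat). WT skin was lower than WT fat by -1.16 (SE 0.192, adjusted p = 8.38e-05) and than WT liver by -1.03 (SE 0.190, adjusted p = 0.000139), and liver and fat differed by -0.13 (95% interval -0.53 to 0.28). Of 6 *Atf2* probes, the other 3 that were well above background on some arrays gave -0.73, -1.11 and -1.62 for skin against fat, and the mean over all 6 gave -0.28 (adjusted p = 0.296). *Batf*, a partner of Jun proteins known from lymphocytes, ranged from -1.55 to -0.54 in skin, from -1.03 to 0.67 in liver and from -0.12 to 0.60 in fat. WT skin was lower than WT fat by -0.97 (SE 0.354, adjusted p = 0.0269), a call lost under 6 of 15 alternatives, and WT liver by -0.81 (adjusted p = 0.0563). Liver KO 2, at 0.67, was far above the other liver arrays and also had the highest summed neutrophil markers of the liver arrays (5.60, others 3.31 to 3.98). Its macrophage (4.23), lymphocyte (3.14) and keratinocyte (5.70) sums were also the highest in liver, and those parts were not tested.

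**Figure D1:**
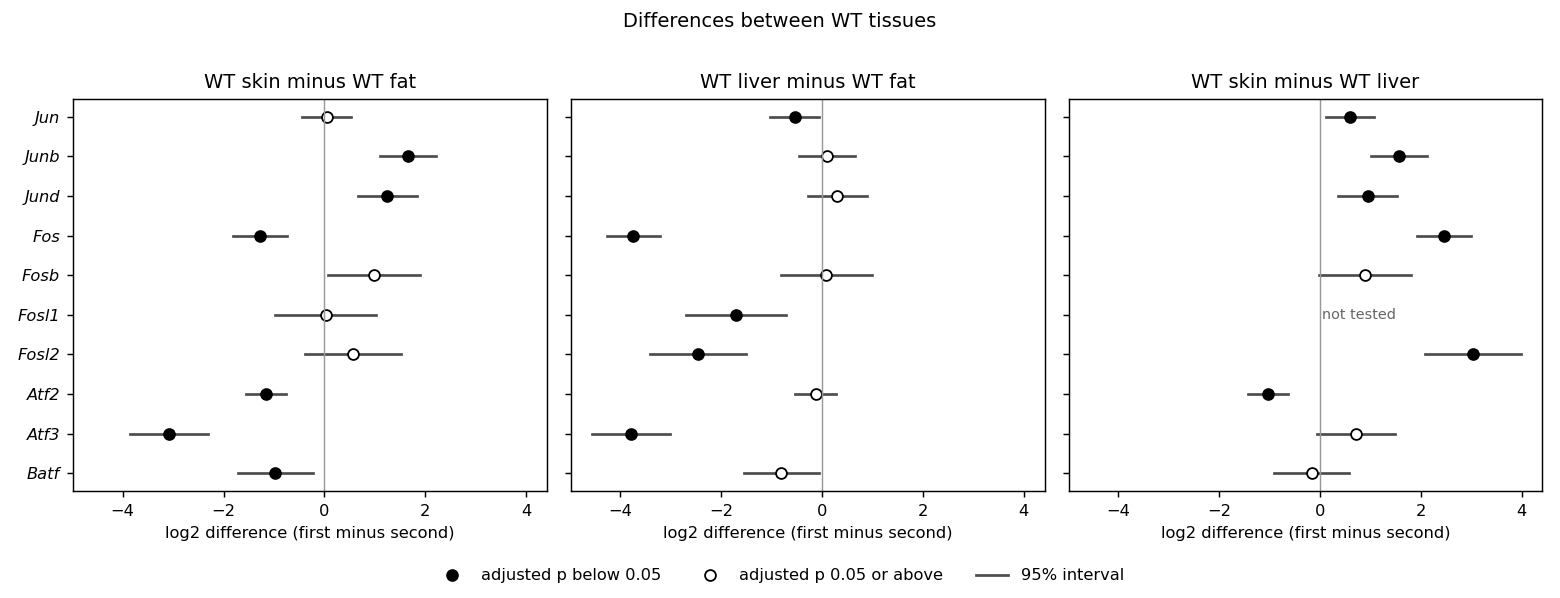
Differences between WT tissues for the 10 AP-1 genes. The horizontal axis is the log2 difference (first tissue minus second), points are limma estimates from 20 arrays with 95% intervals, and filled points had adjusted p below 0.05. *Fos* and *Atf3* lay furthest below 0 in liver against fat, at -3.74 and -3.79, and *Junb* lay above 0 in both contrasts of skin.

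Other genes of the pathway were followed through lists chosen for their function. Of 36 other immediate-early genes, 32 were tested in each contrast, and the shares of all genes called in each direction and the medians over all genes are those given for the AP-1 genes. In WT skin against WT liver 20 were called higher and 2 lower (29.7% and 34.7% of all genes, median 1.11), led by the transcription factor *Klf4* (5.56, adjusted p = 1.78e-11), the stress sensor *Gadd45b* (2.61), *Srf*, which itself drives *Fos* transcription (2.18), and *Ier5l* (2.73). In WT liver against WT fat 4 were called higher and 16 lower (30.1% and 31.4% of all genes, median -0.85), with *Klf4* at -3.29, *Klf6* at -2.42, *Gadd45b* at -2.22 and *Egr2* at -3.64. In WT skin against WT fat 11 were called higher and 4 lower (26.6% and 30.9% of all genes, median 0.28), with *Klf4* at 2.27, *Ier2* at 1.79, *Nr4a1* at 2.01 and *Tiparp* at -1.66. *Ier3* and *Arc*, each well above background on 1 of 6 liver arrays, entered the contrasts with liver only through the other tissue. For them the filter favoured lower values in liver.

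Among 28 other leucine zipper partners, of which 26 were tested, calls were split between directions: 7 higher and 10 lower in WT skin against WT fat (26.6% and 30.9% of all genes), 7 and 7 in WT liver against WT fat (30.1% and 31.4%), and 6 and 8 in WT skin against WT liver (29.7% and 34.7%). *Jdp2*, a Jun dimerization protein, was lower in liver than in fat (-2.18, adjusted p = 3.70e-08) and higher in skin than in liver (2.03), as was *Creb5* (-3.66 and 3.12), whereas *Atf5* was higher in liver than in fat (2.40). *Creb5* was well above background on 0 of 6 liver arrays. Of 38 genes known as AP-1 targets, 14 were called higher and 11 lower in WT skin against WT fat (34 tested), 6 and 15 in WT liver against WT fat (28 tested) and 19 and 7 in WT skin against WT liver (31 tested), beside the same shares of all genes. The leading ones in skin against fat were epidermal genes, *Lor* (14.2), *Sprr1a* (10.3), *Krt6a* (8.61) and *Ivl* (6.82), and *Lor* is also one of the keratinocyte markers. In liver against fat they were the proteases and receptor *Mmp3* (-6.26), *Mmp12* (-5.49), *Plau* (-5.10) and *Plaur* (-2.47).

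No AP-1 gene was called between KO and WT in any tissue. In fat 0 of 10 were called by limma, where 1 of 15246 genes (0.00656%), *Mapk8*, was called. The genes with an unadjusted p below 0.05 were 3 of 10, *Atf3*, *Jun* and *Junb*, against 11.7% of all genes, and all 3 were lower in KO, against 5.2% of all genes. In skin 0 of 9 were called (0.0148% of 13497 genes) and 0 of 9 had an unadjusted p below 0.05 (7.88% of all genes). In liver 0 of 7 were called (0.0226% of 13302 genes) and 0 of 7 had an unadjusted p below 0.05 (6.06%). KO and WT arrays did not overlap for *Atf3* in fat (1 of 10 genes, 7.11% of all genes) and for *Atf2* in liver (1 of 7, 11% of all genes), and they overlapped for all 9 genes in skin (11.5% of all genes did not). The estimates were below 0 for 6 of 9 genes in skin, 5 of 7 in liver and 7 of 10 in fat, with medians of -0.31, -0.23 and -0.16 beside -0.103, -0.005 and 0.023 over all genes. Over all genes, 5314 of 13497 estimates were above 0 in skin, 6516 of 13302 in liver and 8196 of 15246 in fat, so most genes in skin were below 0.

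**Figure D2:**
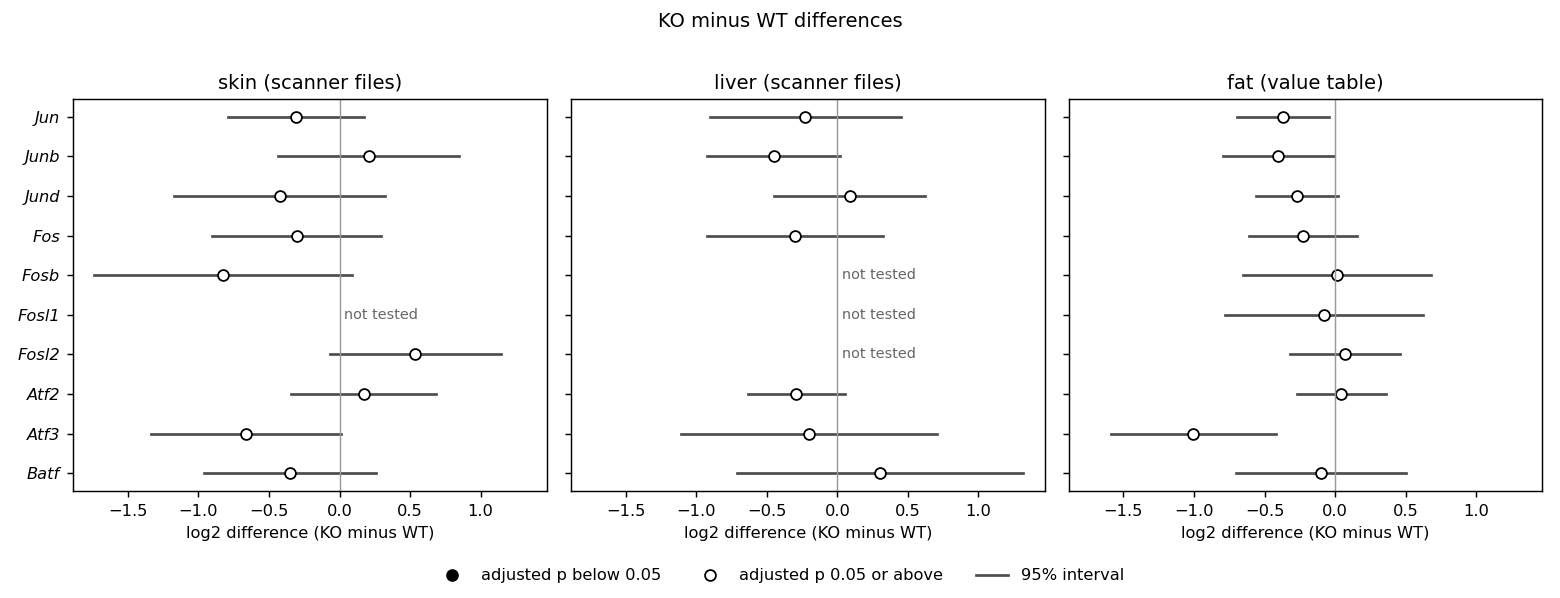
KO minus WT differences of the 10 AP-1 genes in skin, liver and fat. The horizontal axis is the log2 difference with its 95% interval from limma, and all points are open because none had an adjusted p below 0.05. In fat the interval of *Atf3* ran from -1.59 to -0.42, and the intervals of *Jun* and *Junb* also ended below 0.

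*Atf3* in fat had the largest difference of the AP-1 genes. In the value table it was 11.26, 11.83, 12.00 and 11.14 in KO 1 to 4 and 12.03, 12.87, 12.79 and 12.56 in WT 1 to 4, so every KO array was below every WT array, with KO 3 close to WT 1. The difference was -1.01 (SE 0.256, 95% interval -1.59 to -0.42, adjusted p = 0.279), a 2.01-fold lower mean. Leaving out 1 array at a time it ranged from -1.18 to -0.87 (adjusted p from 0.127 to 0.656). In the scanner files, with 3 WT arrays, it was -0.72 (adjusted p = 0.594) and the groups overlapped. On the slide that held both genotypes, fat KO 2 and fat WT 4 differed by -0.73.

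*Jun* in fat was 9.09, 8.99, 8.87 and 8.58 in KO and 9.04, 9.34, 9.22 and 9.40 in WT, and *Junb* was 11.53, 11.95, 11.95 and 11.39 in KO and 11.83, 12.29, 12.16 and 12.15 in WT. In both, 1 WT array, WT 1, lay among the KO arrays. The differences were -0.37 (95% interval -0.70 to -0.04, adjusted p = 0.383) and -0.40 (95% interval -0.80 to -0.01, adjusted p = 0.416), and *Jund* differed by -0.27 (95% interval -0.56 to 0.02, adjusted p = 0.455). In the scanner files *Jun* and *Junb* differed by -0.28 (adjusted p = 0.692) and -0.21 (adjusted p = 0.826). *Fos* differed by -0.23 (adjusted p = 0.614), and the other 5 genes by -0.10 to 0.07, with adjusted p from 0.893 to 0.990.

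The estimates of macrophage markers in fat had the same sign as that of *Atf3*. All 6 were below 0 in KO against WT fat, with a median of -0.89 and 4 of 6 at an unadjusted p below 0.05, all 4 lower (5.2% of all genes), none called. The scanner software flagged as outliers the spots of *Emr1* (11.67) and *Lyz2* (13.59) on fat KO 4 and of *Cd68* (10.42) on fat KO 3. The value table keeps these values, each the lowest of its gene on the 8 fat arrays, and the median of -0.89 includes them. For *Lyz2* the other KO arrays had 16.09 to 17.00. The sum over all 6 was 14.8 to 17.3 in KO fat and 17.1 to 17.3 in WT fat, and the sum over *Csf1r*, *Itgam* and *Cd14*, which had no flagged spot, was 13.06, 13.22, 13.17 and 12.91 in KO 1 to 4 and 13.27, 13.57, 13.34 and 13.46 in WT 1 to 4, without overlap. In the scanner files the same sum overlapped, at 4.59 to 4.80 in KO and 4.76 to 5.04 in WT. These 3 markers were well above background on all 7 fat scanner arrays used. Neutrophil markers had a sum over 4 genes of 13.17, 11.63, 13.22 and 12.13 in KO 1 to 4 and 10.74, 11.41, 11.51 and 11.29 in WT 1 to 4, every KO array above every WT array. Of these genes only *S100a9* did not overlap, at 10.36 to 12.96 in KO and 9.90 to 10.20 in WT. *S100a8* (9.87 to 12.37 in KO, 9.26 to 10.83 in WT), *Csf3r* and *Cxcr2* overlapped. Of 3 neutrophil markers tested, 1 had an unadjusted limma p below 0.05 and none was called. *Itgam* differed by -1.16 (adjusted p = 0.264) and *Csf1r* by -0.37 (adjusted p = 0.313). *Csf1r*, the brightest of the 3 summed macrophage markers, weighs most in their sum, at 12.52 to 12.765 in KO and 12.89 to 13.20 in WT. *Itgam* did not overlap either, at 6.68 to 7.98 in KO and 8.04 to 8.69 in WT. *Cd14* overlapped, at 10.69 to 11.20 in KO and 10.985 to 11.21 in WT. The part of these cell types in the lower *Atf3* values was not tested.

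**Figure D3:**
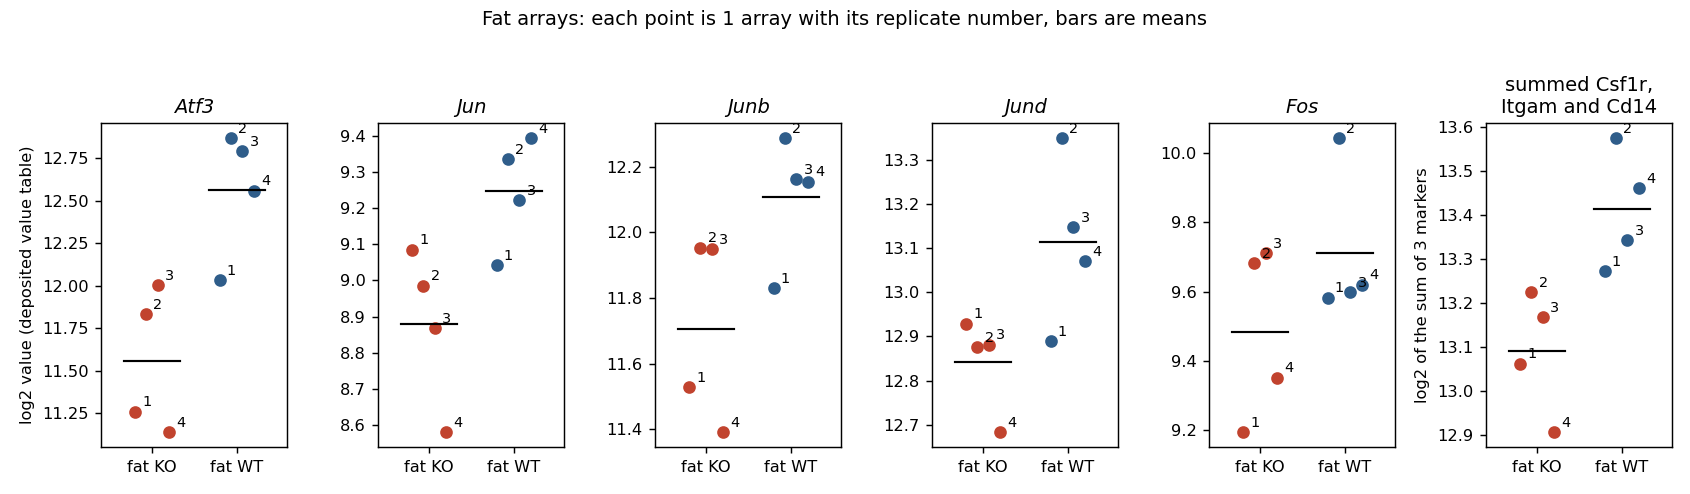
AP-1 genes and macrophage markers on the 8 fat arrays. The vertical axes are log2 values of the deposited value table (right panel: log2 of the sum of *Csf1r*, *Itgam* and *Cd14*), each point is 1 array labelled with its replicate number, KO left and WT right, and bars are means. On this scale *Atf3* and the macrophage sum do not overlap between KO and WT, whereas both overlap in the scanner files, *Jun*, *Junb* and *Jund* overlap through WT 1, and *Fos* was 10.04 in WT 2 against 9.58 to 9.62 in the other WT arrays.

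In skin the largest estimates were *Fosb* at -0.82 (95% interval -1.74 to 0.09), *Atf3* at -0.66 (95% interval -1.33 to 0.01) and *Fosl2* at 0.54 (95% interval -0.07 to 1.14), each with adjusted p = 0.555. The *Fosb* value rested in part on skin KO 1, the array with the fewest probes above background, where it was not above background (-4.25, against -3.23 to -2.48 on the other KO arrays), and without it the difference was -0.46. *Fosl2* was at 0.33 without skin WT 1, and its second probe, well above background on 3 of 20 arrays, gave -0.12. The sums of hair follicle, neutrophil and endothelial markers did not overlap between these groups, though none of these markers was called. The summed hair follicle markers were 8.32 to 10.3 in KO and 4.86 to 6.97 in WT skin, and the neutrophil sum was 4.40 to 10.4 in KO and 2.89 to 3.103 in WT skin. Of 5 neutrophil markers 2 were tested. Of 5 endothelial markers 4 were below 0 and 1 above, and 1 had an unadjusted limma p below 0.05. The endothelial sum was 3.43 to 3.94 in KO and 4.14 to 4.63 in WT skin, and the part of these markers was not tested. *Jund* in skin was at -0.43, and at 0.01 without skin WT 1. In liver the largest estimates were *Junb* at -0.45 (95% interval -0.92 to 0.02, adjusted p = 0.852; the second *Junb* probe gave -0.07), *Batf* at 0.30 (adjusted p = 1) and *Fos* at -0.30 (adjusted p = 1). *Atf2* in liver was -0.01, -0.05 and 0.12 in KO and 0.44, 0.19 and 0.30 in WT, all 3 KO arrays below all 3 WT arrays, a difference of -0.29 (adjusted p = 0.889). The other *Atf2* probes that were well above background on some arrays gave 0.19, -0.07 and -0.16 there. *Batf* in liver was -0.21 without KO 2, 0.64 without KO 3 and 0.19 without WT 1. *Fos* in liver was -0.14 without WT 1, -0.17 without WT 3 and -0.59 without WT 2.

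Averaged over the 3 tissues in 1 fit of 20 arrays, 0 of 7 genes were called by limma (11 of 11710 genes, 0.0939%), and 2 of 7 had an unadjusted p below 0.05 (6.67% of all genes): *Atf3* at -0.53 (SE 0.198, adjusted p = 0.605) and *Jun* at -0.27 (SE 0.124, adjusted p = 0.728). *Jun* was at -0.17 without liver KO 3. Without the arrays treated as standing apart *Atf3* was at -0.86 and *Jun* at -0.44. That set kept liver KO 3 as the only KO liver array, which had the lowest *Jun* (-0.515) and *Atf3* (-0.71) of the liver arrays. Of the 7, 6 estimates were below 0, and *Batf* was at 0.02. Over all genes, 5494 of 11710 estimates were above 0. No AP-1 gene differed by call in its KO effect between tissues. None of 10 was called in skin minus fat (0.423% of all genes) and none had an unadjusted p below 0.05 (11.9%), none of 10 in liver minus fat (0.0564% and 4.71%), and none of 9 in skin minus liver (0.202% and 8.06%). For *Atf3* the KO effect in skin minus that in fat was 0.06 (95% interval -0.97 to 1.08), so a large difference between tissues lay within its error.

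None of the list genes but *Mapk8* was called between KO and WT either. Signs of the list genes are set beside all genes, of which 5314 of 13497 were above 0 in skin, 6516 of 13302 in liver and 8196 of 15246 in fat. Of the AP-1 targets in fat, 9 estimates were above 0 and 17 below, with a median of -0.42 beside 0.023 over all genes, and 1 and 8 had an unadjusted p below 0.05 (6.49% and 5.2% of all genes). The lowest were *Mmp12*, a macrophage elastase (-2.15, adjusted p = 0.248), and *Spp1*, osteopontin (-1.76, adjusted p = 0.264), and the highest were *Mmp9* (0.69) and *Vegfa* (0.55). In skin 18 targets were above 0 and 11 below (median 0.19), 7 of them higher at an unadjusted p below 0.05 (2.85% of all genes), led by the epidermal stress genes *Sprr2d* (3.97) and *Krt16* (3.15), each with adjusted p = 0.555, and the lowest were *Tgfb1* (-0.50) and *Fth1* (-0.51). In liver 5 were above 0 and 15 below (median -0.21). Immediate-early genes were above 0 for 7 and below 0 for 25 in skin (median -0.17), 10 and 20 in liver (median -0.09), and 13 and 19 in fat (median -0.06). The highest in skin were *Dusp2*, a MAP kinase phosphatase (2.28, adjusted p = 0.317), and *Ier3* (0.81), and the lowest *Klf2* (-0.98) and *Nr4a1* (-0.96). The highest in fat were *Btg2* (0.40) and *Dusp2* (0.37). In fat *Egr2*, a zinc finger factor, was at -0.75 (adjusted p = 0.364) and *Ctgf* at -0.87 (adjusted p = 0.387). The leucine zipper partners were above 0 for 8 and below 0 for 18 in skin, 13 and 12 in liver, and 11 and 15 in fat, and *Maff* in liver had the lowest estimate, -1.19 (adjusted p = 0.206).

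Replicates of a group spread unequally between AP-1 genes. The SD within groups over 20 arrays was 0.21 for *Atf2*, smaller than in all but 17.9% of 11488 genes measured in every tissue, 0.27 for *Jun*, 0.31 for *Fos*, 0.32 for *Junb* and 0.34 for *Jund*, beside a median of 0.30 over all those genes. *Batf* at 0.45 and *Atf3* at 0.47 spread more than 79.5% and 81.2% of genes. *Fosb*, *Fosl2* and *Fosl1*, near background on many arrays, had 0.56, 0.59 and 0.62.

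The genes whose deviations from the group means were most like those of each AP-1 gene were named by Pearson r over 20 arrays and 11488 genes, arrays that share depth and tissue makeup, as a description. *Atf3* was most like *Cyth4* (r = 0.907), *Myo1f* (0.907), both known from leukocytes, and *Tinag* (0.900). *Jund* was most like *Ino80e* (0.953), *Sphk2* (0.948) and *Kctd13* (0.947), and *Jun* most like the chemokine *Cx3cl1* (0.859), *Tspyl3* (0.851) and *Abcc4* (0.834). *Junb* went with *Tk1* (0.876), *Slc35f6* (0.841) and *Nhp2* (0.838), *Atf2* with *Trim33* (0.858), *Arid4a* (0.858) and *Dnajc3* (0.856), and *Batf* with the neutrophil protease gene *Ctsg* (0.856), *Hebp2* (0.834) and the leukocyte integrin *Itgal* (0.822). *Fos* went with *Emr4* (0.797), *Ugt2b34* (0.766) and TC1661731 (0.680), *Fosb* with *Mettl7a2* (0.846), NAP026408-1 (0.844) and *Galnt15* (0.827), and *Fosl2* with *Tmtc3* (0.881), *Fam172a* (0.835) and *Nsmaf* (0.835). No AP-1 gene was among the 3 nearest of another. Between AP-1 genes the highest r was 0.55 (*Jun* and *Jund*), then 0.47 (*Jun* and *Atf3*) and 0.42 (*Fos* and *Atf3*), and the lowest was -0.76 (*Jund* and *Atf2*).

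The probes lie, per the files' annotation on mouse build mm9, at chr4:94715864-94715923 (*Jun*), chr8:87500881-87500940 (*Junb*), chr8:73224436-73224495 (*Jund*), chr12:86817900-86817959 (*Fos*), chr7:19888477-19888536 (*Fosb*), chr19:5455496-5455555 (*Fosl1*), chr5:32459624-32459683 (*Fosl2*), chr2:73655713-73655772 (*Atf2*), chr1:192994547-192994606 (*Atf3*) and chr12:87049872-87049929 (*Batf*). The exon or untranslated region under each probe was not analysed here.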

How the data were processed

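Total RNA of skin, liver and epididymal fat (0.2 ug) was labelled with Cy3 and hybridised, per the labels' protocols. Per the file headers, the deposited scanner files hold spot intensity as processed by Agilent Feature Extraction 10.7.3.1, background-subtracted and not scaled between arrays. The authors' deposited value table holds log2 values. The submitters' processing notes list limma with no role, and the table's centring and scaling are not given in the sources used here.

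Spots flagged as outliers were left out, spots of a probe averaged, log2 taken and the 75th percentile of each array subtracted (R 4.3.3, data.table version 1.17.8, Python 3.11.15, pandas 2.3.3). Of several probes of a gene, the one with the highest mean stands for it. Tests within a tissue required 3 or more of its arrays well above background. Contrasts and differences between tissues required this in either tissue, and the mean over tissues required it in every tissue. No spot was saturated. Differences were tested with limma 3.58.1 (lmFit, eBayes, two-sided) and Benjamini-Hochberg adjustment over all genes tested, and called at adjusted p below 0.05. KO against WT was fitted within each tissue and for fat from the value table. The contrasts of tissues and the mean used a single fit of the 20 scanner files. The fits were tested on simulated data with 200 changed genes. For KO against WT, differences of 1 log2 unit were recovered for 32% of changed genes in skin, 40% in liver and 55% in fat. Differences of 3 units were recovered for 83%, 91% and 98%. For differences of 1 unit the share was 85% in the mean over tissues and 11% to 21% for KO effects between tissues. A count of 0 called therefore does not show that no AP-1 gene changed.

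All 10 AP-1 genes are named in every comparison. Up to 4 genes of a list are named: called ones with the smallest p, else the 2 highest and 2 lowest. For AP-1 genes above background on at least 10 arrays, the 3 most alike genes are named. Members and lists were chosen with earlier results of these data known. Arrays came from 6 slides, and only 1 held both genotypes of a tissue (fat KO 2 and WT 4). Scan dates went with the slides. Within skin and within liver, genotype and slide therefore cannot be told apart. Slide was tried as a random block, which does not separate the 2 within those tissues. The number of arrays limits precision. Alternatives are those of the closing section. Figures were drawn with matplotlib 3.10.9.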

Additional observations from a re-analysis of the deposited data

Results flagged for a closer look

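*Fos* in fat WT 2 was 10.04 in the value table, against 9.58 to 9.62 in the other 3 WT fat arrays, a gap of 0.917 of the range of the group. It was the only value of an AP-1 gene in a group of 4 arrays that lay so far from the others, out of 30 groups examined, where chance alone would mark about 1 in 20. The column of this array is the one whose scanner file was not used. Without fat WT 2 the difference of *Fos* between KO and WT fat was -0.12, against -0.23 with it, and neither was called (adjusted p = 0.866 and 0.614).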

How the results depend on the processing

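Counts of AP-1 genes called between KO and WT, in the mean over tissues and in the differences between tissues were 0 under every alternative that was run. None of 1210 values of single genes in these comparisons was called. The alternatives were the value table or scanner files, normexp with an offset of 50, quantile normalization, other filters, the mean over probes, slide as a random block, the replicate block and arrays left out. Within a tissue the deviations of same-numbered arrays had r of -0.23 to 0.25, which gave little sign of pairing by replicate number. Arrays of different tissues were not compared in this way. With the replicate block the counts stayed 0 for KO against WT and 6, 5 and 6 for WT skin against fat, liver against fat and skin against liver. The slide block could not be fitted in liver alone. With normexp, 3 genes were called in WT liver against WT fat in place of 5. Counts without 1 array at a time were 5 to 6 for WT skin against fat, 4 to 5 for liver against fat and 5 to 7 for skin against liver. *Fosl1* in WT liver against WT fat turned to 0.29 with normexp (adjusted p = 0.358) and *Jund* to -0.52 with quantile normalization (adjusted p = 0.0356). In WT skin against WT fat the calls were 2 higher and 4 lower, against 4 and 3 in the value table, 5 and 3 with normexp and 3 and 3 with the mean over probes. The median over all genes there was -0.157, against -0.001 in the value table, 0.120 with normexp and -0.295 with quantile normalization, and for liver against fat -0.045, 0.146 with normexp and -0.212 with quantile normalization. In WT skin against WT liver it was 0.031 in the value table. With the scanner file of fat WT 2 as deposited, *Atf3* in fat was at 0.23 (adjusted p = 0.928). The causes were not tested. Signal over background limits *Fosb*, *Fosl1* and *Fosl2*.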
